A study of Homo sapiens with 6 samples.

Results

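The Sprouty, Spred and PHLDA genes examined here are 9 of the 28395 genes in the deposited expression table, chosen by name: SPRY1, SPRY2 and SPRY4, SPRED1, SPRED2 and SPRED3, and PHLDA1, PHLDA2 and PHLDA3. The cells were HCC827, an established line of human lung adenocarcinoma whose EGFR carries an activating deletion, and the drug was erlotinib, a small-molecule inhibitor of the EGFR kinase. RNA-seq was conducted on 3 libraries of HCC827 cells that received the vehicle DMSO and 3 libraries of cells that received 1 μM erlotinib, all for 24 h. All 6 libraries come from this single EGFR-mutant line, at 1 dose and 1 time point, and no genotype other than that of HCC827 was compared. The DMSO libraries are numbered 1 to 3 and the erlotinib libraries 4 to 6, as in the table.

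Sprouty and Spred proteins are inhibitors of signalling from receptor tyrosine kinases such as EGFR to the kinase ERK. Sprouty proteins bind adaptors and kinases upstream of ERK, and Spred proteins bring neurofibromin, the product of NF1, to RAS at the membrane. Several of these genes are themselves induced when ERK is active, so their products form a negative feedback loop. The PHLDA genes encode small proteins built around a pleckstrin homology-like domain. PHLDA1 is an early response gene of growth factor signalling, PHLDA2 is an imprinted gene best known from the placenta, and PHLDA3 is a p53 target whose product competes with AKT for membrane lipids.

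Signal is the number of reads of a gene divided by 1 size factor per library. The libraries held 20858083, 24641819 and 21172884 reads on genes in DMSO, and 21944007, 20760204 and 21678395 with erlotinib. DMSO library 2 stood furthest from its replicates. Its chi-square per degree of freedom was 24.3 against DMSO library 1 and 15.2 against DMSO library 3, whereas the other pairs within a condition gave 4.13 to 7.96 and pairs across conditions 201.4 to 250. The labels do not say whether replicates were separate cultures. The study's methods state in general that experiments, apart from the animal work, were independently repeated at least 3 times, without naming these libraries. The p-values therefore measure the spread between these libraries, which may be technical.

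Of the 9 genes, 8 had enough signal to be tested, a mean of at least 10 over the 6 libraries, and PHLDA2 had no read. With erlotinib, 6 genes fell (SPRY4, SPRED2, PHLDA1, SPRED1, SPRED3 and SPRY2), PHLDA3 rose, and SPRY1 did not pass the test (limma on log2(signal + 1), Benjamini-Hochberg adjusted p under 0.05 over 14215 genes). Of all tested genes, 35.4% were lower and 35.3% higher by the same test. The falls of 5 of the genes were of at least 1 log2 unit, which 10.8% of the tested genes reached. For 6 of the genes every erlotinib library lay below every DMSO library, as for 36.9% of the tested genes, and for PHLDA3 every erlotinib library lay above, as for 36.7%. The median log2 fold change of the 8 genes was -1.29, and that of all tested genes was 0.02. In bulk RNA, fewer cells that express a gene and less RNA of that gene per cell cannot be told apart.

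**Figure D1:**
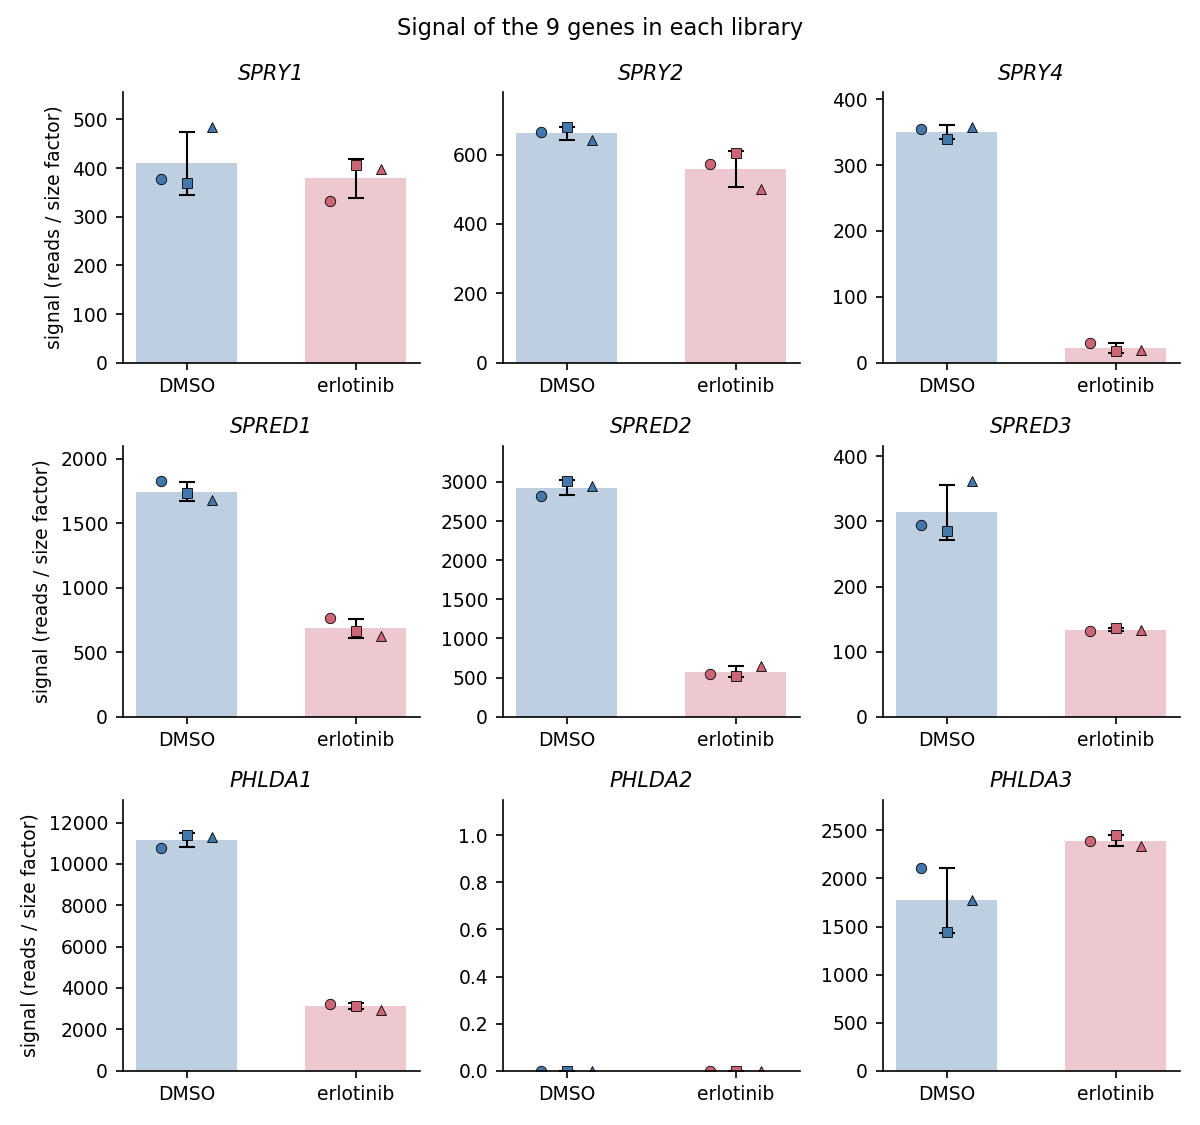
Signal (reads divided by the size factor, linear axes starting at 0) of the 9 genes in the 3 DMSO and the 3 erlotinib libraries, with points for libraries, bars for means and error bars for the SD. SPRY4 was 339 to 357 in DMSO and 17.8 to 30.5 with erlotinib, the SPRY1 groups overlap, PHLDA2 is at 0 in all 6 libraries, and PHLDA3 is the 1 gene whose erlotinib libraries all lie above DMSO.

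The promoters of SPRY4, SPRED2 and PHLDA1, the 3 genes with the largest falls, and of SPRY2, which changed little, are printed as the 150 bases before a transcription start, 5′ to 3′ on the strand of the gene, which is the minus strand for all 4 (RefSeq, GRCh38.p14). Capitals mark the ETS motif CCGGAA or its reverse complement TTCCGG, the motif of transcription factors that ERK activates, and lower case marks all other bases. The stretches lie at chr5:142324248-142324397 for SPRY4, chr2:65432600-65432749 for SPRED2, chr12:76031777-76031926 for PHLDA1 and chr13:80341127-80341276 for SPRY2.
SPRY4: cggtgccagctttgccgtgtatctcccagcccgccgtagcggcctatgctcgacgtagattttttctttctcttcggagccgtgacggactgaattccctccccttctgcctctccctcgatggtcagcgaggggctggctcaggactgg
SPRED2: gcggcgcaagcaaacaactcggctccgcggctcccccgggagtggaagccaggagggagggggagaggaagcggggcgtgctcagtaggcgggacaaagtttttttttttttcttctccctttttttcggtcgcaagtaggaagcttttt
PHLDA1: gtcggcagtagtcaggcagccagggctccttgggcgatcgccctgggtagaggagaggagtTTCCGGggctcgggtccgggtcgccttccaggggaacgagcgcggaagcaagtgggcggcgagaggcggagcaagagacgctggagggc
SPRY2: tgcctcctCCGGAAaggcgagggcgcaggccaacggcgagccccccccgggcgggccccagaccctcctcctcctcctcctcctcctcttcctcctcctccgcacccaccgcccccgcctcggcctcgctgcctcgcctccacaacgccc
Motifs were searched on both strands of windows from 250 bases before to 50 after a start, with 12 windows for 7 of the genes. The table of promoters held no entry for PHLDA2 and PHLDA3. CCGGAA was found in 3 of the 12 windows (25%), at position -67 of the second SPRY1 window, at -142 in SPRY2 and, as TTCCGG, at -89 in PHLDA1, and in 17.25% of 35116 windows of all genes. The AP-1 motif TGANTCA was found in 2 windows (16.7%), as TGACTCA at -60 of the first SPRED3 window, and as TGACTCA at -6 and TGAATCA at 35 of the second SPRED2 window, and in 7.71% of all windows. The CRE motif TGACGTCA (1.85% of all windows), the EGR motif GCGTGGGCG (0.7945%) and the serum response element core (1.29%) were found in 0 of the 12 windows. No match of one motif overlapped a match of another. SPRY1 and SPRY2, which changed least, and PHLDA1, which fell, share the ETS letters. The only window of SPRY4, which fell most, holds none of the motifs searched. That window lies inside the annotated gene, which reaches upstream to 142325021, so the outermost start of SPRY4 was not searched. A match is only a run of letters, and these data do not measure binding.

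Among the Sprouty genes, erlotinib lowered SPRY4 strongly and SPRY2 slightly, and SPRY1 did not pass the test. SPRY4 (Entrez gene 81848, chromosome 5 from 142310430 to 142325021 in GRCh38) gave signal values of 355, 339 and 357 in DMSO and of 30.5, 17.8 and 18.7 in the erlotinib libraries. These values rest on 313 to 365 reads per DMSO library and only 18 to 33 per erlotinib library, and the lowest DMSO library was far above the highest erlotinib library. Mean signal dropped from 350.5 ± 10.1 to 22.3 ± 7.05 (SD, n = 3 each), a 15.7-fold fall that left 6.37% of the DMSO level. The log2 fold change was -3.95 (95% interval -4.43 to -3.48, standard error 0.23, limma adjusted p = 2.7e-12), place 17 of 14215 from the largest fall. With a pseudocount of 10 in place of 1, which weighs on low values, it was -3.50.

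SPRY2 (Entrez gene 10253, chromosome 13, 80335976 to 80341126) gave signal values of 665, 679 and 642 in DMSO and of 573, 604 and 502 in the erlotinib libraries. The groups did not overlap, but the gap between the lowest DMSO and the highest erlotinib library was narrow. The mean went from 662 ± 18.5 to 559.6 ± 52.4 (SD, n = 3 each), with a log2 fold change of -0.25 (95% interval -0.46 to -0.04, standard error 0.10, limma adjusted p = 0.035). The call was lost without DMSO library 1 (adjusted p = 0.0658), erlotinib library 4 (0.0618) or erlotinib library 6 (0.195), and after scaling every library to its total read count, where the log2 fold change was -0.07 (adjusted p = 0.564, limma). That scaling moved the median of all tested genes from 0.02 to 0.19, since the summed signal of the erlotinib libraries was 0.883 times that of the DMSO libraries. Relative to that median, SPRY2 was at -0.26 under both scalings. The scaling shifts all genes nearly alike, so this equality holds by construction and is not a separate check.

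SPRY1 (Entrez gene 10252, chromosome 4, 123396795 to 123403760) gave signal values of 377, 369 and 484 in DMSO and of 333, 406 and 399 in the erlotinib libraries, and the groups overlapped. Mean signal was 409.7 ± 64.3 with DMSO and 379 ± 40.1 in the erlotinib libraries (SD, n = 3 each). The log2 fold change was -0.11 (95% interval -0.37 to 0.16, standard error 0.13, limma adjusted p = 0.475), an interval that holds small changes either way. Its sign turned with scaling to the total count (0.07) and without DMSO library 3 (0.02), the highest DMSO library. Relative to the median of all tested genes it was at -0.12 under both scalings, again by construction. SPRY3, the remaining Sprouty gene, had 1 to 4 reads per library and was not tested.

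All 3 Spred genes fell with erlotinib, SPRED2 the most. SPRED2 (Entrez gene 200734, chromosome 2, 65307175 to 65432599) gave signal values of 2819, 3008 and 2947 in DMSO and of 550.0, 525 and 653 in the erlotinib libraries. Its libraries kept far apart between the conditions and close together within them. Mean signal dropped from 2925 ± 96.4 to 576 ± 68.2 (SD, n = 3 each), a 5.08-fold fall, with a log2 fold change of -2.35 (95% interval -2.53 to -2.16, standard error 0.09, limma adjusted p = 2.9e-15). It stood at place 224 of 14215 from the largest fall.

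SPRED1, the gene mutated in Legius syndrome (Entrez gene 161742, chromosome 15, 38252836 to 38357249), gave signal values of 1826, 1732 and 1678 in DMSO and of 765, 664 and 625 in the erlotinib libraries. All 3 DMSO libraries lay far above the erlotinib libraries. On average SPRED1 dropped from 1746 ± 75.0 to 685 ± 72.1 (SD, n = 3 each), a 2.55-fold fall, with a log2 fold change of -1.35 (95% interval -1.54 to -1.17, standard error 0.09, limma adjusted p = 2.4e-11). SPRED3 (Entrez gene 399473, chromosome 19, 38388697 to 38399587) gave signal values of 295, 285 and 362 in DMSO and of 131, 136 and 134 in the erlotinib libraries. Its erlotinib libraries were nearly level, and DMSO library 3 was the highest of all. On average SPRED3 dropped from 314 ± 41.7 to 134 ± 2.31 (SD, n = 3 each), a 2.35-fold fall, with a log2 fold change of -1.22 (95% interval -1.53 to -0.91, standard error 0.15, limma adjusted p = 3.0e-07). Scaled to the total count, the log2 fold changes of SPRED2, SPRED1 and SPRED3 were -2.17, -1.17 and -1.04.

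The PHLDA genes did not move together. PHLDA1 fell, PHLDA3 rose and PHLDA2 had no reads. PHLDA1 (Entrez gene 22822, chromosome 12, 76025447 to 76031776) gave signal values of 10784, 11383 and 11315 in DMSO and of 3237, 3136 and 2955 in the erlotinib libraries. The libraries of a condition differed little and the conditions were far apart. Mean signal dropped from 11161 ± 328 to 3109.5 ± 143 (SD, n = 3 each), a 3.59-fold fall, with a log2 fold change of -1.84 (95% interval -1.98 to -1.71, standard error 0.06, limma adjusted p = 9.0e-16). PHLDA1 is among the genes that the study picked from these libraries for display, so its fall is not independent evidence of a response.

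PHLDA3 (Entrez gene 23612, chromosome 1, 201464278 to 201469188) gave signal values of 2112, 1439 and 1771 in DMSO and of 2390.1, 2449 and 2339 in the erlotinib libraries. The DMSO libraries were spread widely, with library 2 the lowest, and the erlotinib libraries were close together above them. Mean signal increased from 1774 ± 337 to 2393 ± 55.0 (SD, n = 3 each), 1.35-fold higher, with a log2 fold change of 0.45 (95% interval 0.24 to 0.66, standard error 0.10, limma adjusted p = 0.00044). Without DMSO library 2, which stood apart from its replicates, it was 0.31, and the gene was still called higher. Relative to the median of all tested genes, the rise was 0.43 under both scalings, again by construction. Without that library, the log2 fold changes of the 6 genes that fell lay between -3.98 for SPRY4 and -0.23 for SPRY2, and that of SPRY1 was -0.18.

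PHLDA2 (Entrez gene 7262, chromosome 11, 2928273 to 2929420) had 0 reads in each of the 6 libraries, a count that allows up to 3 reads per library by counting error alone. Its whole transcript (100% of its length) also aligned to an alternate contig of GRCh38 at an identity of 100%, and the authors counted uniquely mapped reads only. Whether such contigs were in the genome they mapped to is not given in the sources used here, and its part in the count of 0 was not tested. Of 12 genes listed around PHLDA2 in 11p15.5, 4 also have such a copy. CDKN1C, the cell cycle inhibitor p57, had 0 to 13 reads per library, SLC22A18 2 to 24, NAP1L4 0 to 2 and CARS 0. Of the 8 genes without a copy, CD81 (2055 ± 68.6 in DMSO and 2187 ± 82.5 with erlotinib), TSSC4 (1491 ± 214 and 1156 ± 81.8) and OSBPL5 (189 ± 25.7 and 259 ± 11.9, SD, n = 3 each) were well measured. The remaining 5, KCNQ1, KCNQ1OT1, IGF2, H19 and ASCL2, had a mean signal of at most 4.59. Of the KCNQ1 transcript, 50.2% aligned to the same contig as PHLDA2. TSSC4 fell (log2 fold change -0.36, adjusted p = 0.00253, and 0.0988 with scaling to the total count), OSBPL5 rose (0.46, adjusted p = 0.0083), and CD81 (0.09, adjusted p = 0.266, and called higher at 0.27 with that scaling) and SLC22A18 (1.08, adjusted p = 0.137, and 0.26 without DMSO library 2, which held 2 reads of it) did not pass the test (limma).

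**Figure D2:**
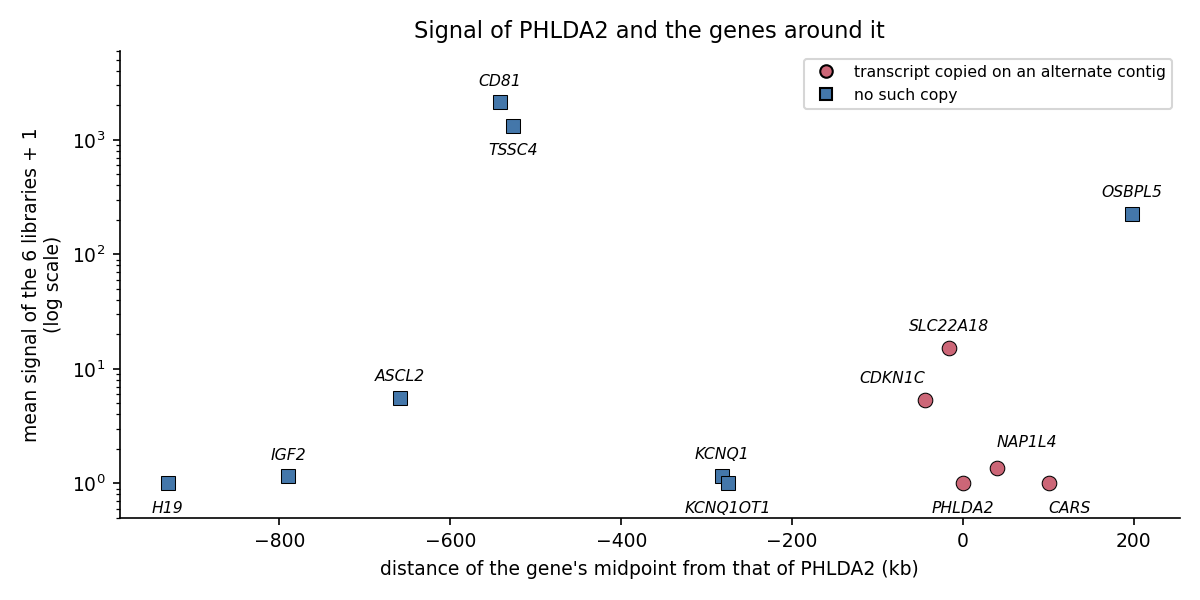
Mean signal of the 6 libraries plus 1 (log axis) of PHLDA2 and 12 genes around it, against the distance of each gene's midpoint from that of PHLDA2 in kb. Circles are genes whose transcript is copied on an alternate contig, all with a mean signal of at most 14.2, and squares are genes without such a copy, which range from 0 to 2121 (CD81).

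To see whether genes of a family differed in response, the log2 ratio of each pair within a family was compared between conditions in the 7 pairs that can be formed without PHLDA2. The ratio of SPRY1 to SPRY4 rose from 0.21 ± 0.19 to 4.06 ± 0.57 and that of SPRY2 to SPRY4 from 0.92 ± 0.08 to 4.62 ± 0.41 (log2 scale, SD, n = 3 each), differences of 3.85 and 3.71. The ratio of PHLDA1 to PHLDA3 went from 2.67 ± 0.32 to 0.38 ± 0.05, a difference of -2.29. That of SPRED1 to SPRED2 moved by 1.00 and that of SPRED2 to SPRED3 by -1.13. In these 5 pairs the DMSO and erlotinib libraries did not overlap (exact permutation test, two-sided p = 0.1 each, the smallest that 3 against 3 libraries allow, and 0.14 after Benjamini-Hochberg adjustment over the 7 pairs), so that no pair can pass a threshold of 0.05. The SPRY1 to SPRY2 ratio (a difference of 0.14) and the SPRED1 to SPRED3 ratio (-0.13) overlapped between conditions (exact permutation test, two-sided p = 0.5 each).

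**Figure D3:**
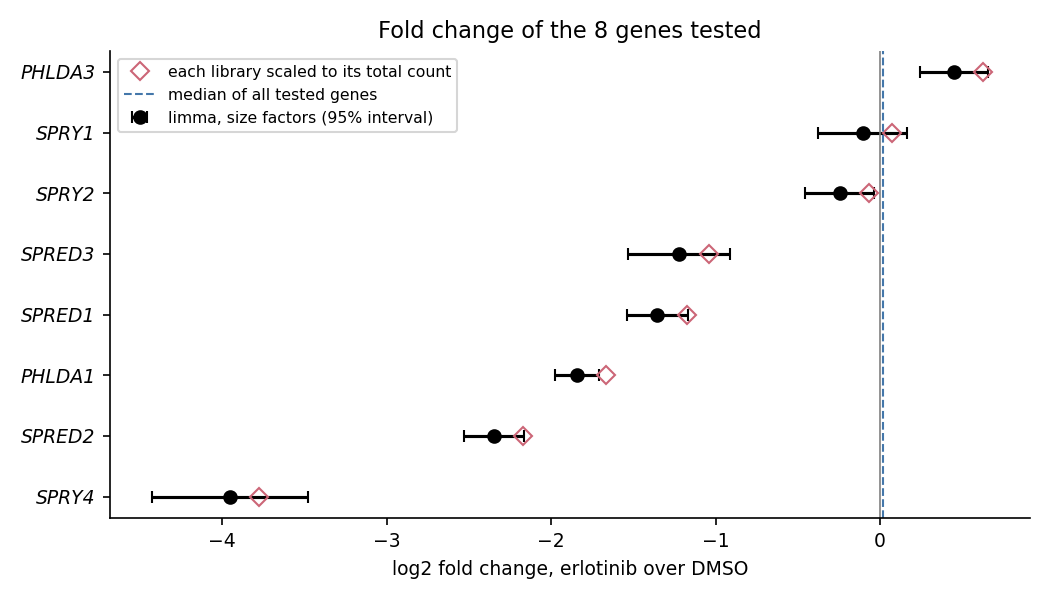
Log2 fold changes (erlotinib over DMSO) of the 8 tested genes with their 95% intervals (limma, black), the values after scaling to total counts (open diamonds), and the median of all tested genes (dashed line, 0.02). SPRY4 lies at -3.95 and PHLDA3 at 0.45, and SPRY1 changes sign with the scaling, from -0.11 to 0.07.

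Levels of different genes were compared as signal per kb of joined exons. In DMSO the order was PHLDA1 (1887 per kb), PHLDA3 (547), SPRED2 (531), SPRED1 (225), SPRY2 (206), SPRY1 (103), SPRED3 (53.5) and SPRY4 (53.5). PHLDA3 and SPRED2, and SPRED3 and SPRY4, overlapped between libraries, and the other neighbours in this order did not. With erlotinib PHLDA3 came first (738 per kb), before PHLDA1 (526), SPRY2 (174), SPRED2 (105), SPRY1 (95.7), SPRED1 (88.4), SPRED3 (22.8) and SPRY4 (3.41). SPRED2 and SPRY1, and SPRY1 and SPRED1, overlapped between libraries, and the other neighbours in this order did not. SPRY2 thus moved from place 5 to place 3 with a small fall of its own, as SPRED2 and SPRED1 fell below it.

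Summed over a family, the Spred signal per kb was 810.0 ± 10.7 with DMSO and 216 ± 10.1 under erlotinib (SD, n = 3 each), 3.75-fold lower. The PHLDA sum was 2435 ± 57.5 and 1264 ± 36.9, 1.93-fold lower, and the Sprouty sum was 363 ± 11.8 and 273 ± 17.6, 1.33-fold lower. SPRY4 made up 14.7% ± 0.408 of the Sprouty sum in DMSO and 1.26% ± 0.428 with erlotinib, while SPRY2 was the largest component in both (56.8% ± 3.31 and 63.7% ± 3.34). In the Spred sum, SPRED2 went from 65.6% ± 1.31 to 48.4% ± 4.37 and SPRED1 from 27.8% ± 1.52 to 41.0% ± 4.27, and SPRED2 was still the larger of the pair in every library. In the PHLDA sum the order turned, with PHLDA1 at 77.6% ± 3.80 in DMSO and 41.6% ± 0.899 with erlotinib, and PHLDA3 at 22.4% ± 3.80 and 58.4% ± 0.899 (SD, n = 3 each). The shares of SPRY1 overlapped between the conditions (28.4% ± 3.48 and 35.1% ± 3.64, exact permutation test, p = 0.2). Those of the other 7 genes with reads did not overlap (exact permutation test, p = 0.1 each, unadjusted). The exact permutation test of 3 against 3 libraries allows no smaller p-value, so no share can pass a threshold of 0.05. Shares within a family add up to a whole, so these 7 results are not independent, and PHLDA1 and PHLDA3 mirror each other. How often shares overlap in other gene families was not tested. SPRY2, SPRED1 and SPRED3 had higher shares with erlotinib although their own signal was lower.

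**Figure D4:**
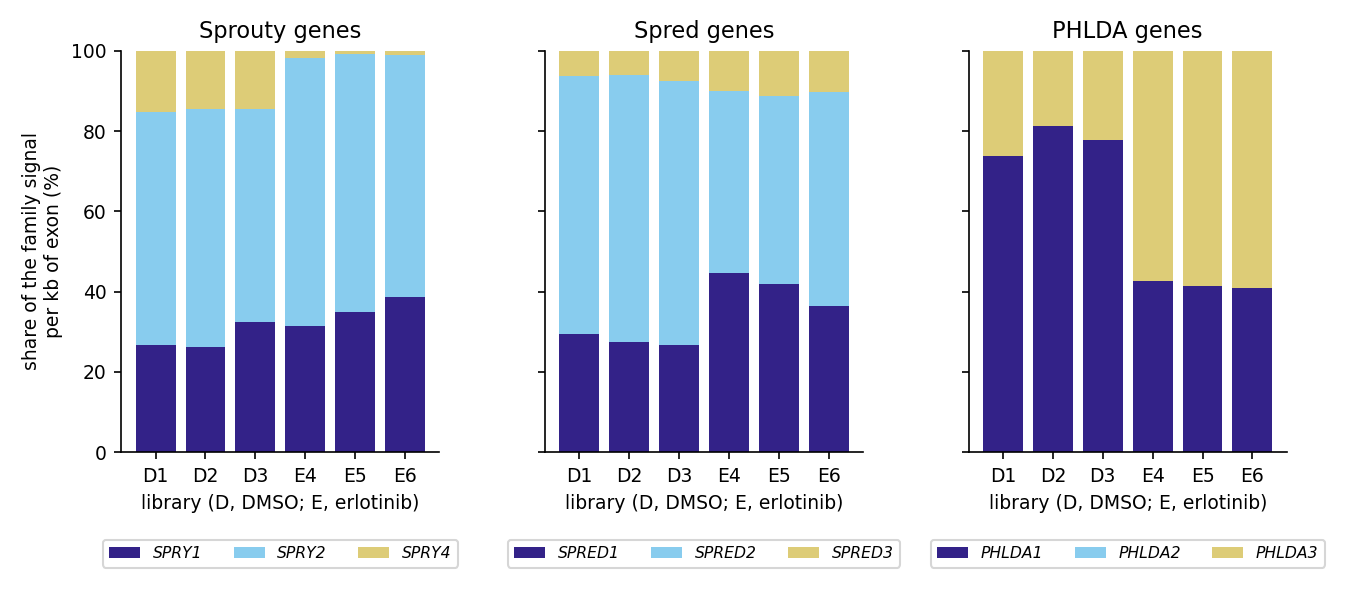
Share (%) of each gene in the summed signal per kb of its family, in DMSO libraries 1 to 3 (D) and erlotinib libraries 4 to 6 (E), with bars that add up to 100%. SPRY4 shrinks from 14.7% to 1.26% of the Sprouty sum, and PHLDA3 grows from 22.4% to 58.4% of the PHLDA sum.

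The other genes of the pathway were taken from lists of known inhibitors, readouts and components. Of 8 further feedback inhibitors of receptor tyrosine kinase signalling, 7 were tested, and 5 fell and 2 rose, with a median log2 fold change of -1.64, beside 35.4% lower and 35.3% higher among all tested genes. The ERK phosphatases DUSP6 (-4.33), DUSP5 (-2.12), DUSP7 (-1.75) and DUSP4 (-1.64) all fell (limma, adjusted p of at most 3.6e-11). DUSP6 went from 1391 ± 25.3 to 68.2 ± 5.35 (SD, n = 3 each, adjusted p = 5.1e-17, limma), a fall of the size seen for SPRY4. ERRFI1, which encodes an inhibitor of the EGFR kinase itself, fell from 18874 ± 1315 to 8634 ± 227 (log2 fold change -1.13, adjusted p = 2.7e-12, limma). The genes that rose were IL17RD, also known as Sef, from 343 ± 20.4 to 638 ± 55.3 (0.89, adjusted p = 3.5e-07), and LRIG1, from 39.8 ± 13.0 to 71.2 ± 14.4 (0.85, adjusted p = 0.0133, limma), which lost its call without erlotinib library 4 (adjusted p = 0.0708). SPRY3, the eighth gene, had too few reads to be tested.

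Of 11 genes widely read as output of ERK, 9 of the 10 tested fell and 0 rose, with a median log2 fold change of -2.70, beside the same 35.4% and 35.3% of all tested genes. The largest falls were those of the ETS factors ETV1 (405 ± 88.5 to 12.7 ± 7.11, log2 fold change -5.04) and ETV5 (1327 ± 30.0 to 67.6 ± 28.9, -4.38) and of the AP-1 subunit FOSL1 (15818 ± 1514 to 889 ± 20.8, -4.15; SD, n = 3 each), each with an adjusted p-value no higher than 4.6e-11 (limma). EPHA4, with 24 to 53 reads per library, did not pass the test (0.39, adjusted p = 0.339), and IER3, which is also present on an alternate contig, had 1 to 7 reads and was not tested. DUSP6, FOSL1, EGR1 and CCND1, all in these lists, are among the genes that the study named as suppressed in these libraries, so their falls are not independent evidence.

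Genes of proteins that bind or modify Sprouty and Spred had a median closer to 0. Of 12 such genes, all tested, 7 fell and 2 rose, with a median of -0.35, where 35.4% of all tested genes were lower and 35.3% higher. CAV1, the main protein of caveolae, fell from 46095 ± 1907 to 18597 ± 675 (log2 fold change -1.31), PPP2CA, a catalytic subunit of the phosphatase PP2A, by 0.83 and PTPN11, which encodes the phosphatase SHP2, by 0.63 on the log2 scale. CBLB, a ubiquitin ligase, rose from 159 ± 17.2 to 503 ± 48.8 (SD, n = 3 each; log2 fold change 1.66), and the kinase gene TESK1 rose by 0.63. None of these 5 genes had an adjusted p-value above 3.6e-05 (limma). NF1, through which Spred proteins act on RAS, did not pass the test (-0.07, adjusted p = 0.456, limma, and 0.10 with scaling to the total count).

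In the core of the ERK cascade, from adaptors such as SHC1 through RAS and RAF to ERK and its kinase targets, 17 of 18 genes were tested, and 5 fell (3 with scaling to the total count) and 6 rose, with a median of 0.02, close to that of all tested genes, of which 35.4% were lower and 35.3% higher. MAP2K1, which encodes the kinase MEK1, fell by 0.90 and NRAS by 0.51 on the log2 scale. The ribosomal S6 kinase gene RPS6KA2 (1.38), MAPK3, which encodes ERK1 (1.12), and RPS6KA3 (0.90) rose. None of these 5 genes had an adjusted p-value above 1.0e-06 (limma). HRAS, with a copy on an alternate contig, had 0 reads. Log2 fold changes of the tested core genes lay between -0.90 and 1.38.

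**Figure D5:**
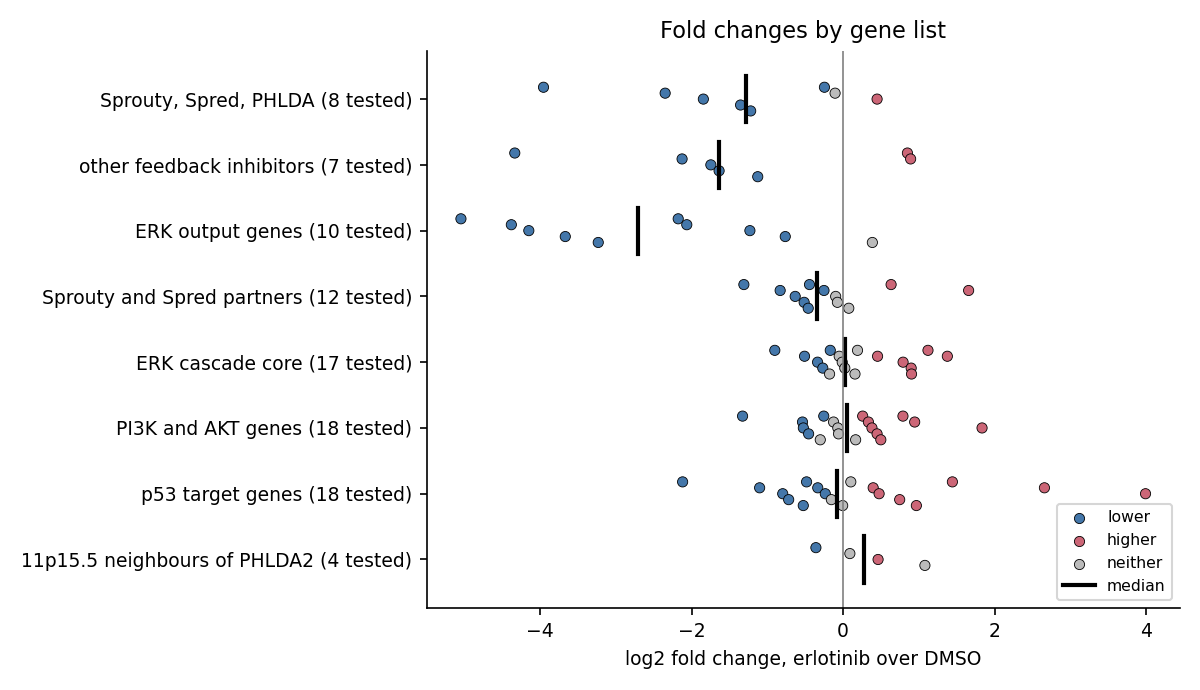
Log2 fold changes (erlotinib over DMSO) of the tested genes of each list, with 1 point per gene coloured by its call and a bar at the median. The Sprouty, Spred and PHLDA genes (median -1.29), the other feedback inhibitors (-1.64) and the ERK output genes (-2.70) lie mostly to the left of 0, and the medians of the partner genes, the ERK cascade core, the PI3K and AKT genes and the p53 targets lie between -0.35 and 0.05.

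PHLDA3 was set beside the lists of its 2 known settings, AKT signalling and p53. Of 19 PI3K and AKT genes, 18 were tested, and 5 fell and 8 rose, with a median of 0.05, beside 35.4% lower and 35.3% higher among all tested genes. PIK3R3, a regulatory subunit of PI3K, rose from 1149 ± 57.1 to 4099 ± 168 (SD, n = 3 each; log2 fold change 1.83), INPPL1, a lipid phosphatase gene, by 0.94 and TSC2, an inhibitor of mTOR signalling, by 0.79 on the log2 scale. PHLPP2, a phosphatase of AKT (-1.33), the PI3K catalytic subunit PIK3CB (-0.54) and AKT2 (-0.52) fell, with adjusted p-values up to 1.4e-05 among these 6 genes (limma).

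Of 19 p53 targets other than PHLDA3, 18 were tested, and 8 fell (4 with scaling to the total count) and 7 rose, with a median of -0.08, beside 35.4% lower and 35.3% higher among all tested genes. TP53INP1 rose from 221 ± 1.20 to 3530 ± 58.7 (SD, n = 3 each; log2 fold change 3.99), the pro-apoptotic gene BBC3 by 2.66 and the cytokine gene GDF15 by 1.44 on the log2 scale. AEN, a nuclease gene (-2.12), TIGAR, a regulator of glycolysis (-1.10), and the DNA repair gene DDB2 (-0.80) fell, with adjusted p-values up to 9.8e-05 among these 6 genes (limma). CDKN1A, the p53 target that encodes p21, gave 484 ± 58.1 with DMSO and 482 ± 59.4 under erlotinib (log2 fold change -0.01, adjusted p = 0.970, limma, and 0.17 with scaling to the total count). PHLDA3 (0.45) lay near the low end of the 7 rises in this list, from 0.40 for ZMAT3 to 3.99. Those 7 genes were picked for having risen, so that place follows largely from the choice. The list as a whole had a median of -0.08, and a part of p53 in the rise of PHLDA3 was not tested.

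Of the genes next to the Sprouty, Spred and PHLDA genes in the genome, GGN, FAM98C, CSRP1 and SLC22A18 could be tested, the last beside PHLDA2 and described with it. SPRED3 lies 313 bases from GGN and 3506 bases from FAM98C, and both rose while SPRED3 fell. GGN went from 44.3 ± 2.42 to 70.8 ± 5.09 (log2 fold change 0.66, adjusted p = 0.0231) and FAM98C from 284 ± 72.1 to 412 ± 70.8 (0.55, adjusted p = 0.00604, SD, n = 3 each, limma). PHLDA3 lies 14342 bases from CSRP1, which fell from 3126 ± 115 to 2756 ± 175 (-0.18, adjusted p = 0.0260, limma), a call that scaling to the total count ended (adjusted p = 0.967). SPRY4-AS1, a long non-coding RNA gene 272 bases from SPRY4, gave signal values of 13.6, 26.0 and 2.14 in DMSO and of 0 in the 3 erlotinib libraries, too low to be tested. SPRY4-IT1 overlaps SPRY4 and PHLDA1-AS1 overlaps PHLDA1. Neither is in the table, and since the strand that was counted is not stated, reads of an overlapping gene cannot be told apart from those of SPRY4 or PHLDA1.

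The gene most like each of the 8 was searched among 11068 genes whose mean signal was 100 or more, by the Euclidean distance between the 6 log2 values centred on their mean, which reflects mostly the fold change. PHLDA1 had the closest match, HK2, a hexokinase gene of glycolysis (distance 0.0504, log2 fold change -1.83). SPRY4 had the most distant, the DNA exonuclease gene EXO1 (0.522, -3.90). For SPRED2 it was the adenosine receptor gene ADORA2B (0.158, -2.35), for SPRED1 TXNDC17 (0.111, -1.34), for SPRED3 SMIM4 (0.124, -1.27), for SPRY2 UBQLN4 (0.0934, -0.27), for SPRY1 C1orf35 (0.152, -0.15) and for PHLDA3 TMEM184A (0.0965, 0.51).

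The cell type of the libraries was checked by markers. The epithelial genes KRT7 (123686 ± 7643 with DMSO and 79897 ± 2922 under erlotinib, SD, n = 3 each), KRT8, KRT18, KRT19, CDH1 and EPCAM (9852 ± 235 and 9485 ± 281) and the lung genes NKX2-1 and NAPSA were high in every library, while the surfactant gene SFTPB had 4 to 13 reads. KRT18 (-1.25), KRT8 (-0.83), KRT7 (-0.63) and KRT19 (-0.39) fell, NAPSA (1.92) and NKX2-1 (1.53) rose, and EPCAM (-0.05, adjusted p = 0.429) and CDH1 (0.14, adjusted p = 0.0531) did not pass the test (limma), with 0.12 for EPCAM and 0.32 for CDH1 after scaling to the total count. CDH1 was called higher in 7 of the 15 alternative fits. Of the 5 fibroblast markers, COL1A1 rose from 77.7 ± 15.3 to 216 ± 27.9 (SD, n = 3 each) and made up most of their summed signal of 71.5 to 107 in DMSO and 215 to 259 with erlotinib, while COL1A2 and DCN had at most 3 reads in a library and LUM had 2 to 6 reads in DMSO and 10 to 20 with erlotinib. Of the 5 leukocyte markers, CD68, which is not confined to leukocytes, rose from 2898 ± 206 to 3394 ± 167. CD68 kept this call in 14 of the 15 alternative fits. PTPRC and CD3E had at most 6 reads and CD14 at most 26. Of the 3 endothelial markers, VWF rose from 1 to 7 reads to 23 to 38, and PECAM1 and CDH5 had at most 17. Of the PTPRC transcript, 77.1% aligned to an alternate contig at an identity of 99.98%, so its low count is a weak check. The summed endothelial signal was 15.8 to 34.0 with DMSO and 42.6 to 58.1 under erlotinib, and the part of COL1A1, LUM, CD68 and VWF in the results was not tested.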

How the data were processed

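RNA-seq of HCC827 cells was analysed in 6 libraries, 3 treated with DMSO and 3 with erlotinib. The authors mapped paired-end reads with Bowtie2 2.3.4 to GRCh38 from Ensembl, counted uniquely mapped reads with featureCounts 1.6.3 and tested with DESeq2 1.18.1. Bowtie2 does not split reads across introns. The deposited signal values are reads divided by 1 size factor per library (0.882 to 1.08), since every value (100%) is a multiple of 1 step per library by a whole number of reads, within 0.01, and neither this division nor the counted strand is given in the sources used here. The recovered whole reads gave the depths and served the count tests.

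The 14215 of 28395 genes whose mean signal reached 10 were tested with limma on log2(signal + 1), letting the prior variance follow the mean, two-sided, with Benjamini-Hochberg adjustment over all of them and a threshold of 0.05. Fold changes on this scale understate those of low genes. Folds are ratios of mean signal. The table has 475 genes without a symbol, which were kept, and 0 columns per sample were left out. Titles of the libraries use numbers 1 to 3 in both conditions, whereas the erlotinib columns are numbered 4 to 6, so a column was tied only to its condition.

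The genes and lists were chosen with earlier results of these data known. Named are the 9 genes, all other feedback inhibitors, in other lists up to 3 genes with the largest fall and up to 3 with the largest rise among those past the threshold without overlap, neighbours within 50 kb, the most similar gene, and markers with at least 10 reads in a library. Some single genes are named by this rule but are not reported here. Named outside this rule, after their values were seen, were genes of a list that could not be tested or did not pass, NF1, CDKN1A, ZMAT3, EGR1, CCND1 and the low markers. Positions and promoters are from RefSeq (GRCh38.p14), and lengths from GENCODE. Copies were searched with minimap2 2.31-r1302 on 261 alternate contigs (at least 90% of a transcript at 97% identity).

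The alternatives were edgeR with TMM and with RLE factors, DESeq2, limma-voom, scaling to the total count, no filter, at least 10 reads in every library, pseudocounts of 0.1 and 10, an adjusted p under 0.01, each library left out, and, chosen after seeing the data, the length of the longest transcript. Used were limma 3.58.1, DESeq2 1.42.0 and edgeR 4.0.16 in R 4.3.3, and matplotlib 3.10.9 in Python 3.11.15.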

Additional observations from a re-analysis of the deposited data

How the results depend on the processing

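Over 16 alternatives, 5 to 6 of the 9 genes were lower and 1 was higher, while 3955 to 5080 of all genes tested were lower and 4323 to 6156 higher. SPRY4, SPRED1, SPRED2, SPRED3, PHLDA1 and PHLDA3 kept their calls in all 15 fits. SPRY2 kept its call in 11, and its log2 fold change lay between -0.30 and -0.17 with 1 library left out and was -0.07 with scaling to the total count. SPRY1 turned its sign with that scaling (0.07374), and with 1 library left out it lay between -0.1757 and 0.01978.

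Scaling to the total count lowered the number of genes that fell to 3 (from 5) in the ERK cascade core, to 4 (from 8) among the p53 targets and to 0 (from 1) among the 11p15.5 genes, where 2 in place of 1 then rose. Without the filter, 3 of the 11p15.5 genes rose. Of the other feedback inhibitors, 1 to 2 rose with 1 library left out and 1 at an adjusted p under 0.01. The difference in the share of SPRY4 was -12.86 percentage points with the length of the longest transcript, an alternative chosen after seeing the data, and -13.48 with joined exons. The cause was not tested, apart from the shift of all genes that scaling to the total count brings by construction. SPRY4, with 18 to 33 reads per erlotinib library, had the fewest reads of the 8 tested genes, and its erlotinib libraries had a coefficient of variation of 31.6%.

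No paired analysis was possible because the erlotinib columns carry other numbers than the titles of their samples.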
